A study of Mus musculus with 6 samples.

Results

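Respiratory complex I is built from nuclear genes whose symbols start with Nduf and from a few genes of the mitochondrial genome, and the Nduf genes were followed here in microglia after acute ischemic stroke (AIS). Members were the genes whose RefSeq symbol, matched through the accession given for each probe, starts with Nduf. There were 46 of them among the 23462 named genes on the array, covered by 56 of 56605 probes. They comprised 36 structural subunits, 8 assembly factors of the Ndufaf family and 2 genes, Ndufa4 and Ndufa4l2, that carry the name without belonging to complex I. A further 8 Nduf symbols of the gene table, among them Ndufb1, had no matched probe, and none of the mitochondrially encoded subunits was matched.

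Microglia were taken by magnetic selection for P2RY12 from male mice on a C57BL/6 background, 10 weeks of age by the labels, in which AIS had been induced by transient occlusion of the middle cerebral artery. Control mice (PGC-1αf/f, 3 arrays) carried a loxP-flanked PGC-1α allele together with an eGFP gene. Their littermates (mPGC-1α, 3 arrays) carried in addition Cx3cr1-CreERT2, a tamoxifen-inducible Cre under the promoter of a microglial and macrophage gene, and were made to overexpress PGC-1α in these cells. In the paper, mice of both genotypes had the occlusion after tamoxifen treatment. The study's methods left an interval between tamoxifen and stroke, meant to keep the overexpression to microglia and out of macrophages, which was not tested here. The paper gives no time from stroke to isolation of the cells for these arrays. Whether an array came from 1 mouse or a pool was not given in the sources used here.

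Complex I takes electrons from NADH and passes them through flavin and iron-sulfur clusters to ubiquinone while it pumps protons across the inner mitochondrial membrane. Its N module holds the site of NADH oxidation, its Q module the site of ubiquinone reduction, and the proximal and distal parts of its membrane arm the proton channels. Assembly factors of the Ndufaf family join the parts or modify subunits and then leave the finished complex. PGC-1α, encoded by Ppargc1a, is a coactivator that works with the estrogen-related receptors (ERR) and nuclear respiratory factors to switch on nuclear genes of the respiratory chain, and the comparison asked whether the complex I genes differed with the mPGC-1α genotype.

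The arrays themselves were examined first, because some went against their labels. A level is the log2 intensity of a probe minus the 75th percentile of its array, and a difference is mPGC-1α minus control. Xist lay between -0.57 and -0.11 on 5 arrays labelled male and at -4.83 on control array 2. One probe each of the Y-linked Ddx3y, Eif2s3y, Kdm5d and Uty was above background on control array 2 and on none of the other 5, so these 5 arrays did not match the male label. A second Eif2s3y probe was also above background on control array 1 and a second Kdm5d probe on all 6 arrays, both at their highest on control array 2. In separate measurements, by qRT-PCR and immunostaining, the paper reported higher PGC-1α in microglia of mPGC-1α mice than of controls. On these arrays Ppargc1a did not mark the genotype. Its brighter probe (A_51_P279038) read -1.05, -0.55 and -0.53 on the controls, always given in the order of arrays 1 to 3, and -1.08, -0.86 and -1.12 on the mPGC-1α arrays. The groups overlapped (difference -0.31, SE 0.24, limma adjusted p = 0.798), and where this probe lies relative to the transgene was not examined. A second Ppargc1a probe (A_55_P2745394) gave -0.58 to -0.25 over 17 settings. Cx3cr1 (A_52_P99810) read 4.19, 3.66 and 4.11 on the controls and 2.79, 2.36 and 3.13 on the mPGC-1α arrays. It lay lower without overlap, as did 3.45% of all genes (difference -1.23, SE 0.24, limma adjusted p = 0.684, unadjusted 6.2e-04). By design the mPGC-1α mice alone carried the Cx3cr1-CreERT2 allele. The cause of the lower Cx3cr1 level was not tested. Another Cx3cr1 probe (A_55_P2007964), not tested, ran from 3.57 to 4.41 with marked spots kept. In the text, mPGC-1α is the label of an array.

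All 12 microglial markers were above background on the 6 arrays, and the sum of their linear signals, in units of the 75th percentile, was 267 to 299 on control and 276 to 303 on mPGC-1α arrays. Markers of other brain cells were present too. For 15 neuronal markers the sum was 45.9 to 73.3 on control and 71.5 to 85.8 on mPGC-1α arrays. For 10 oligodendrocyte markers it was 12.2 to 20.5 against 24.2 to 34.6, and for 8 astrocyte markers 13.8 to 18.3 against 19.5 to 62.5. The tested markers had differences above 0 for 14 of 15 neuronal, 10 of 10 oligodendrocyte and 7 of 7 astrocyte genes. None of these was at background on all arrays. Of the tested microglial markers, 4 of 10 were above 0 (median -0.092), where 64.0% of all genes were. The count was 1 of 9 for monocyte and macrophage, 1 of 4 for neutrophil and 1 of 5 for choroid plexus and ependymal markers. For lymphocyte, erythroid and vascular markers it was 4 of 7, 3 of 4 and 5 of 6. Neurons and astrocytes express complex I as microglia do, and the part of these cells in the values below was not tested.

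No Nduf gene passed the test. Of the 46 members, 44 had a probe that could be tested, and 0 had a limma adjusted p below 0.05. The same was true of all 40745 tested probes (0%), among which the smallest limma adjusted p = 0.638. On its brightest probe, none of the 44 reached an unadjusted p below 0.05. On theirs, 6.09% of all 18222 tested genes did, 3.41% higher and 2.68% lower. Dimmer probes of the members were not part of this count, and with dimmer probes included the share was 7.17% of all tested probes. When the fit was blocked on the replicate number, 0 members and 0.00549% of all genes passed the adjusted threshold. The 35 tested structural subunits had a median difference of 0.09, with 25 above 0 and 10 below, and the 8 Ndufaf genes had a median of -0.013, with 3 above 0 and 5 below (5 above with normexp). Over all tested genes the median was 0.11, with 64.0% above 0 and 36.0% below, so that 15 of the 35 structural subunits lay above the median gene. The SE of a structural subunit had a median of 0.27, which is larger than the size of most of these differences.

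Control array 2, the one whose sex-linked genes stood apart, bore on these counts. Without it the median difference was 0.25 for the 28 structural subunits still tested and 0.15 for the Ndufaf genes, against 0.22 for all genes. A total of 611 of 17825 genes then had a limma adjusted p below 0.05, and 0 of the 36 tested Nduf genes were among them. Ndufs8 was then the one Nduf gene with an unadjusted p below 0.05 (difference 0.43, limma adjusted p = 0.176), 1 of 36 where 21.2% of all genes lay below it. The direction of the subunits as a set depended on the scaling and on single arrays. With quantile normalization 14 of 35 structural subunits were above 0 (median -0.021), with background correction by normexp before it 15 of 35 (median -0.045) and in the authors' normalized values 14 of 35 (median -0.018), while 60.2% to 61.5% of all genes stayed above 0. Without control array 1 the count was 5 of 28, beside 54.0% of all genes, and without mPGC-1α array 2 it was 12 of 31, beside 58.3%. In the other direction it was 23 of 28 without control array 2, beside 69.3%, and 28 of 31 without mPGC-1α array 1, beside 62.6%. In bulk samples such as these, fewer cells of a type and less RNA per cell cannot be told apart.

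**Figure D1:**
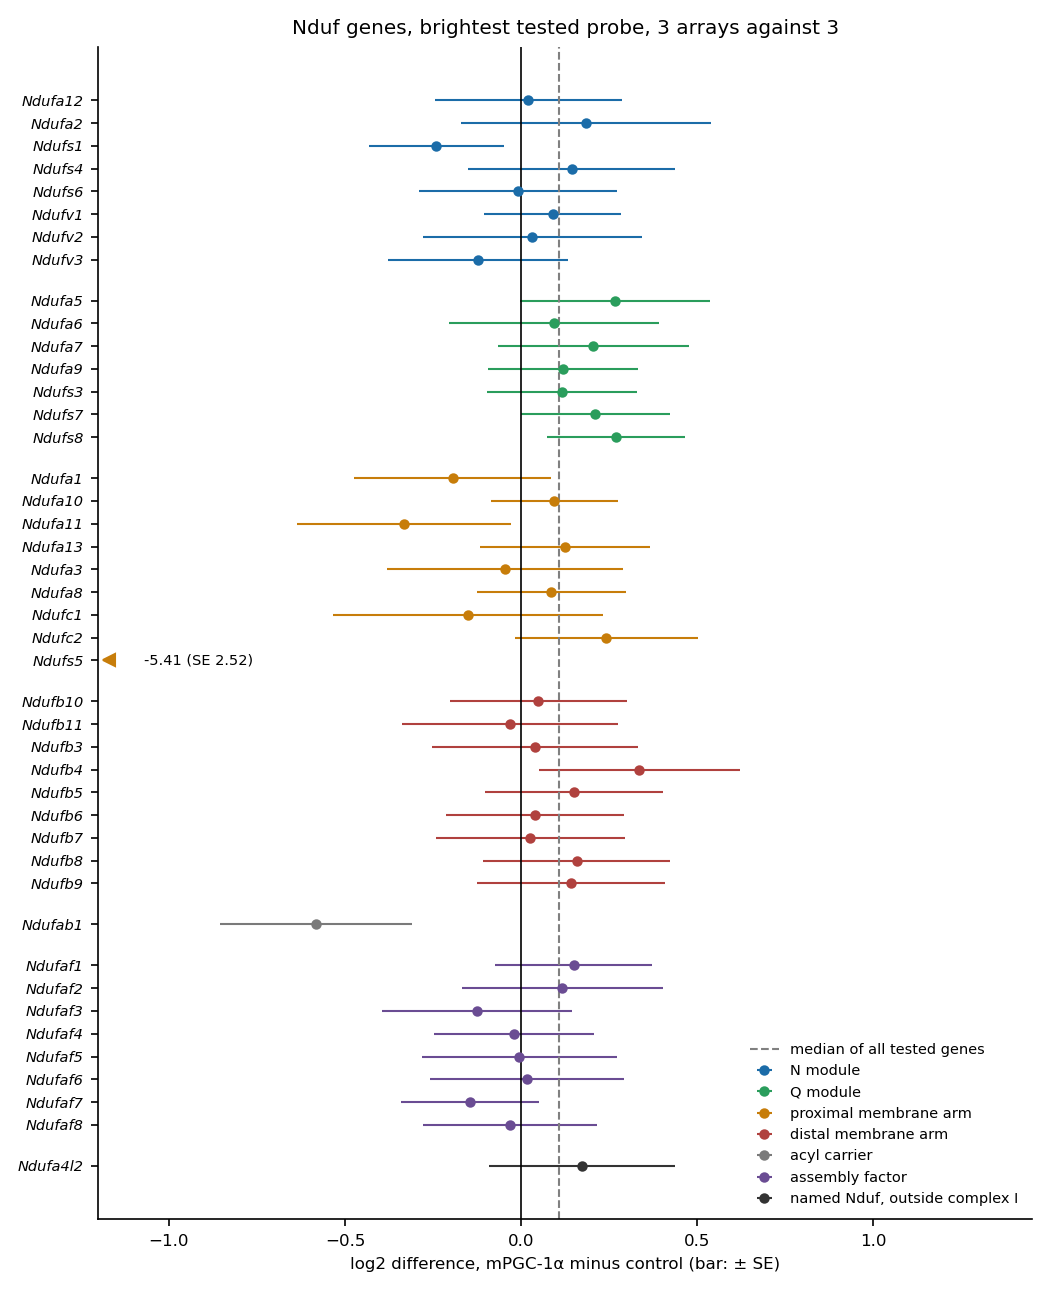
Log2 difference between mPGC-1α and control arrays (x axis) for 43 of the 44 tested Nduf genes (y axis), brightest probe of each, with bars for ± 1 SE and colours for the part of the complex. The dashed line is the median of all tested genes (0.11); most bars reach 0, and the arrowhead stands for Ndufs5, whose value of -5.41 lies off the scale.

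In the N module, 5 of 8 subunits were above 0, with a median of 0.026, but 1 of 8 with quantile normalization, 2 of 8 with normexp and in the authors' values, 0 of 5 without control array 1 and 1 of 7 without mPGC-1α array 2. Ndufv1, which binds NADH and the flavin, read 1.73, 1.99 and 2.07 on the controls and 1.84, 2.11 and 2.12 on the mPGC-1α arrays (difference 0.090, SE 0.19). The groups overlapped. Ndufv2, which carries an iron-sulfur cluster beside the flavin, read 2.48 and 3.29 on the first and second control, its spot on the third being marked as an outlier, and 2.64, 3.32 and 2.78 on the mPGC-1α arrays (difference 0.031, SE 0.31). Ndufs1, the largest subunit and the next carrier of clusters, was the core subunit with a value below 0. It read 2.52, 2.56 and 2.79 on the controls and 2.18, 2.57 and 2.41 with the mPGC-1α label. The difference was -0.24 (SE 0.19, limma adjusted p = 0.799), and mPGC-1α array 2 lay within the range of the controls.

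The Q module was the part whose subunits all had a difference above 0, at 8 of 8, with a median of 0.21 and a range of 0.094 to 0.27. With quantile normalization 7 of 8 were above 0 and the median was 0.073, with normexp 8 of 8 and 0.077, in the authors' values 6 of 8, and without control array 1 it was 5 of 7 and 0.039. Ndufs8, a ferredoxin-like subunit with iron-sulfur clusters, had levels of 4.36, 4.996 and 4.64 on the controls and 4.93, 5.01 and 4.87 on the mPGC-1α arrays. Control array 1 was the low one, control array 2 lay among the mPGC-1α values, and the difference of 0.27 (SE 0.20) had a limma adjusted p = 0.785. Ndufs7, which holds the last cluster before ubiquinone, read 3.15, 3.67 and 3.48 against 3.35, 3.74 and 3.84 (difference 0.21, SE 0.21, limma adjusted p = 0.842). Ndufs3, a core subunit without a cluster, read 2.86, 3.52 and 3.33 against 3.18, 3.43 and 3.45 (difference 0.12, SE 0.21).

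In the distal part of the membrane arm, 8 of 9 tested subunits were above 0 (median 0.049, range -0.030 to 0.34), and in the proximal part 4 of 9 were (median -0.045). Quantile normalization left 4 of 9 distal and 2 of 9 proximal subunits above 0. Without control array 1 the counts were 0 of 7 distal (median -0.11) and 0 of 8 proximal (median -0.20), and without mPGC-1α array 2 they were 1 of 7 (median -0.079) and 3 of 8 (median -0.13). Without mPGC-1α array 1 they were 7 of 7 (median 0.22) and 7 of 8 (median 0.12), so 1 array decided the direction in both parts. Ndufb4, an accessory subunit of the distal part, had the highest difference of all tested members at 0.34 (SE 0.29, limma adjusted p = 0.814). It rested on 2 arrays a group, with control levels of 2.06 and 2.52 and mPGC-1α levels of 2.41 and 2.85, because both spots on the second slide were marked. Ndufa11, an accessory subunit where the proximal and distal parts meet, read 0.53, 1.66 and 1.21 on the controls and 0.56, 1.14 and 0.71 on the mPGC-1α arrays. Its difference was -0.33 (SE 0.30, limma adjusted p = 0.825), and it moved to -0.07 without control array 2 and to -0.63 (unadjusted p = 0.0483 by limma over all probes) without control array 1. The other proximal subunits apart from Ndufs5 lay between -0.19 (Ndufa1) and 0.24 (Ndufc2).

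Ndufs5, a small accessory subunit on the intermembrane side, gave the widest value, and it came from 1 spot. The probe (A_55_P2029750) read 1.66, 2.56 and 2.36 on the controls, -8.80 on mPGC-1α array 1 and 2.36 on mPGC-1α array 2, and its spot on mPGC-1α array 3 was marked as an outlier and read 2.34 when kept. The spot on mPGC-1α array 1 was not marked and was not well above background, while the other 5 spots lay within the range of 1.66 to 2.56. The fitted difference of -5.41 had an SE of 2.52 and a limma adjusted p = 0.708. Blocking on the replicate number gave -5.33 with a limma adjusted p = 0.210 (unadjusted 0.00904), and without mPGC-1α array 1 too few values were left for a test.

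Ndufab1, the mitochondrial acyl carrier protein, which sits in complex I and also serves fatty acid synthesis and iron-sulfur cluster formation, was the one member whose groups did not overlap on its brightest probe. Its probe (A_51_P208801) read -2.68, -2.49 and -2.60 on the controls (mean -2.59 ± 0.095, SD, n = 3) and -3.46, -3.07 and -2.98 with the mPGC-1α label (mean -3.17 ± 0.25, SD, n = 3). All 3 mPGC-1α arrays lay below all 3 controls. The difference was -0.58 (SE 0.27), the one with the smallest p among the brightest probes of the members (limma adjusted p = 0.706, unadjusted 0.0603). By exact permutation p was 0.1, below which 3 against 3 arrays cannot go. Slide 1 alone gave a difference of -0.68 and slide 2 one of -0.38. The probe was dim, with processed intensities from 69.1 to 184, and with normexp the difference was -0.31. Ndufab1 was 1 of the 25 structural subunits with a value on every array. Of all genes with 6 values, 3.45% lay lower without overlap, 8.48% higher and 11.9% in either direction.

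**Figure D2:**
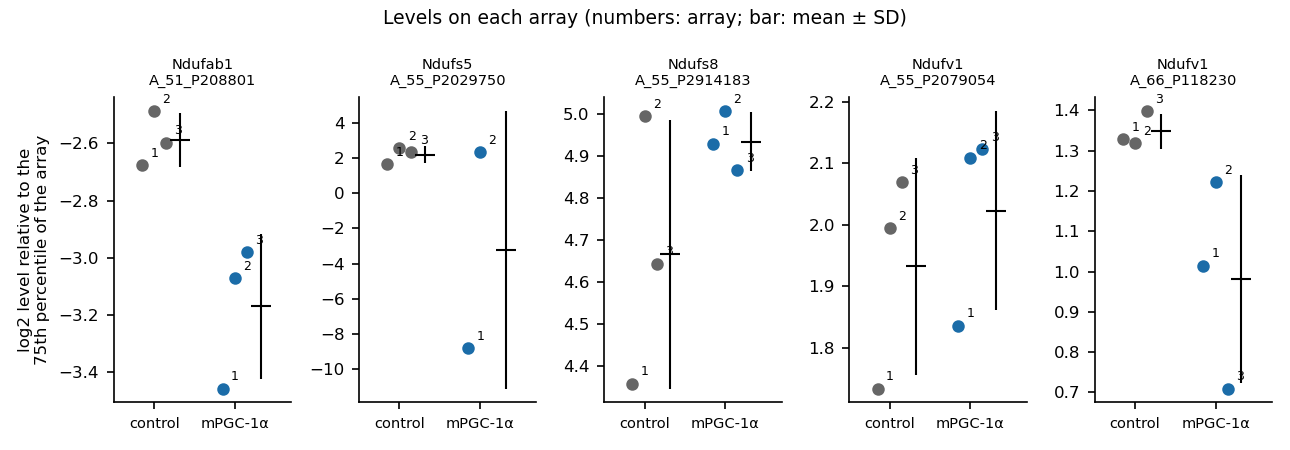
Log2 level relative to the 75th percentile of the array (y axis, own scale in each panel) on each control and mPGC-1α array for Ndufab1, Ndufs5, Ndufs8 and the brighter (A_55_P2079054) and dimmer (A_66_P118230) probe of Ndufv1, with numbers for the arrays and bars for the mean ± SD. Ndufab1 has no overlap between its groups, the single point at -8.80 sets the Ndufs5 value, and the groups of Ndufv1 overlap on its brighter probe and not on its dimmer one.

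The Ndufaf assembly factors had differences between -0.15 and 0.15. The 3 with the smallest p were Ndufaf7, Ndufaf1 and Ndufaf3. Ndufaf7, a methyltransferase that modifies a subunit, read 1.35, 1.56 and 1.75 on the controls and 1.28, 1.48 and 1.46 on the mPGC-1α arrays (difference -0.15, SE 0.20, limma adjusted p = 0.890). Ndufaf1, which helps to assemble the membrane arm, read -0.20, -0.11 and -0.57 against -0.076, -0.12 and -0.24 (difference 0.15, SE 0.22, limma adjusted p = 0.900). Both genes overlapped between the groups. Ndufaf3, which works on the Q module, read 1.00, 1.60 and 1.08 against 0.93 and 1.28, with the third mPGC-1α spot marked (difference -0.12, SE 0.27).

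The other 5 assembly factors lay within 0.12 of 0. Ndufaf2, a late factor of the N module, had a difference of 0.12 (SE 0.29), and Ndufaf4, the partner of Ndufaf3, one of -0.020 (SE 0.23). Ndufaf5, which hydroxylates Ndufs7, had -0.0051 (SE 0.28) and its partner Ndufaf8 had -0.032 (SE 0.25). Ndufaf6, an early factor, had 0.016 (SE 0.28). The median difference of the structural subunits exceeded that of the Ndufaf genes by 0.10, which is less than the spread of either group's median over the arrays, and the order was turned with normexp (-0.082), with quantile normalization, in the authors' values and without mPGC-1α array 2 (-0.10).

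Ndufa4 and Ndufa4l2 stand outside complex I, the first as a subunit of cytochrome c oxidase and the second as a hypoxia-induced relative of it. Ndufa4l2 read 0.62 and 1.26 on the first and second control against 1.21, 1.16 and 0.97 with the mPGC-1α label, the third control spot being marked (difference 0.17, SE 0.26, limma adjusted p = 0.903). Ndufa4 could not be tested because its spot was marked on 4 of 6 arrays. With marked spots kept it read 4.09, 4.42 and 4.11 on the controls and 3.97, 4.35 and 4.01 on the mPGC-1α arrays, which overlapped. Ndufb2, of the distal membrane arm, was likewise marked on 4 arrays and read 3.08, 3.68 and 3.18 against 3.09, 3.54 and 3.30 with these spots kept.

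Several members had a second probe, and the probes of a gene did not always point the same way. Of 8 Nduf genes with 2 tested probes, 5 had differences of opposite sign, beside 44.4% of 6367 genes with at least 2 tested probes on the whole array. The dimmer probe had the lower difference in 5 of 8, beside 66.8% of all such genes.

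The second probe of Ndufv1 (A_66_P118230) read 1.33, 1.32 and 1.40 on the controls and 1.01, 1.22 and 0.71 on the mPGC-1α arrays, without overlap. Its difference was -0.37 (SE 0.21), the limma adjusted p = 0.741 and the exact permutation p = 0.1, against 0.090 on the brighter probe. For Ndufb8, of the distal membrane arm, the brighter probe gave 0.16 (SE 0.27) and the dimmer one (A_52_P252539), matched to another transcript of the gene, read -1.49, -1.48 and -1.77 against -1.80, -1.94 and -1.86. These groups did not overlap either (difference -0.28, SE 0.24, limma adjusted p = 0.810). The share of dimmer probes without overlap over the whole array was not computed. On the brightest probe, 3.45% of all genes with 6 values lay lower without overlap. Over the whole array the dimmer probes had a median difference of -0.074, against 0.12 for the brighter ones. The probes of Ndufa10, another membrane arm subunit, gave 0.095 and -0.053, and those of Ndufaf5 gave -0.0051 and 0.0087, all within 1 SE of 0. Both Ndufa5 probes (0.27 and 0.30), both Ndufa3 probes (-0.045 and -0.032) and both Ndufaf7 probes (-0.15 and -0.28) had the same sign.

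**Figure D3:**
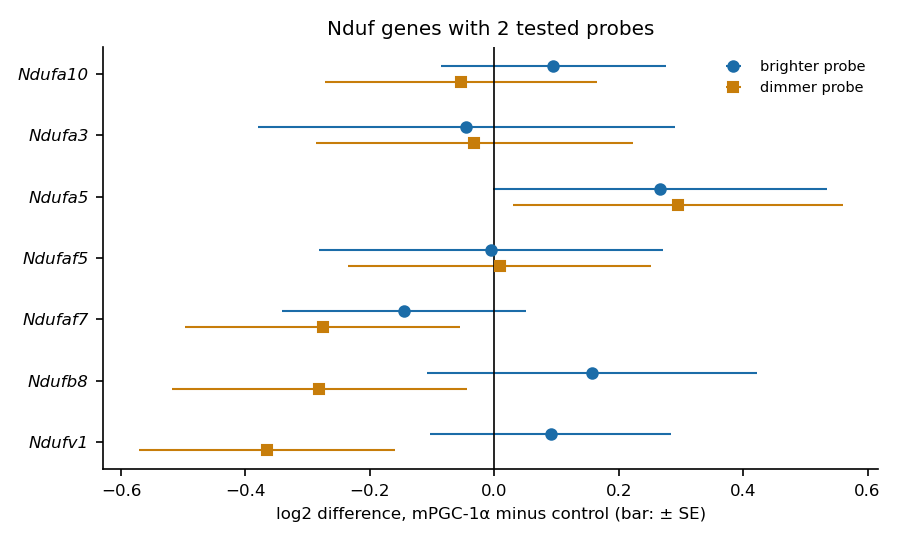
Log2 difference between mPGC-1α and control arrays (x axis) on the brighter (circles) and dimmer (squares) probe of 7 of the 8 Nduf genes with 2 tested probes, with bars for ± 1 SE. The probes of Ndufv1 and Ndufb8 lie on opposite sides of 0, and for Ndufa10 and Ndufaf5 both bars cross 0.

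The structural subunits varied together from array to array more clearly than between the genotypes. Each gene was set relative to its own mean over the 6 arrays, for the 25 structural subunits with a value on all of them. The median of these centred levels was -0.41, 0.29 and 0.022 over the controls and -0.21, 0.28 and 0.10 over the mPGC-1α arrays. Array 2 was above array 1 in both groups for 25 of 25 subunits, a pattern shown by 44.1% of all 16191 genes with 6 values. It held for 22 of 25 with quantile normalization, where it held for 39.2% of all genes, and for 32 of 35 in the authors' normalized values, against 39.5%. Control array 1 was the lowest control for 25 of 25, and for 7570 of all 16191 genes. Over all these genes the centred median ran -0.20, 0.15 and -0.11 on the controls. On the mPGC-1α arrays it ran 0.061, 0.094 and -0.0086.

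The pattern was chosen after the values were seen, and so is given as a description. It was shared by the other respiratory complexes, with 21 of 22 nuclear genes of complexes II to V, and to a lesser extent by the mitochondrial ribosome, with 45 of 61 genes. Among the assembly factors it held for 5 of 7 Ndufaf genes and for 5 of 11 other complex I assembly genes. Of the brain cell markers with 6 values, 7 of 7 astrocyte, 9 of 15 neuronal, 1 of 6 microglial and 0 of 8 oligodendrocyte genes showed it, as did 4 of 5 choroid plexus and ependymal and 1 of 5 vascular genes. Of the blood cell markers, 3 of 3 erythroid, 3 of 3 neutrophil, 6 of 7 lymphocyte and 4 of 6 monocyte and macrophage genes showed it. The erythroid median ran -0.77, 0.97 and -0.66 on the controls and -1.15, 1.31 and 0.32 on the mPGC-1α arrays. The neuronal median ran -0.58, -0.020 and -0.65 on the controls and 0.51, 0.58 and -0.14 on the mPGC-1α arrays, so that it was high on mPGC-1α array 1, where the complex I median was low. The part of other cells in this pattern was not tested.

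**Figure D4:**
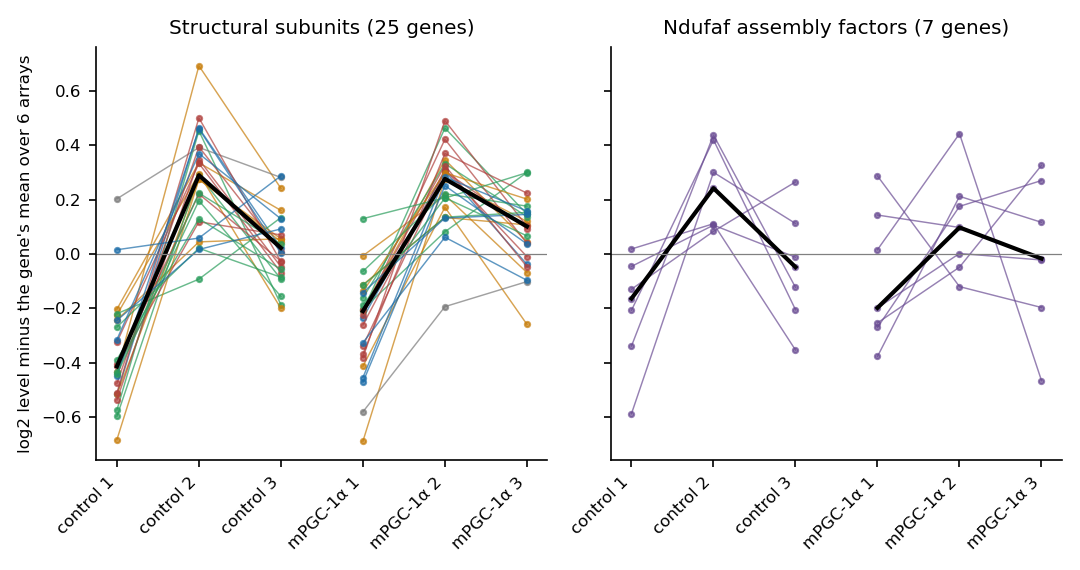
Log2 level of each gene minus its mean over the 6 arrays (y axis) for the 25 structural subunits (left, coloured by part of the complex) and the 7 Ndufaf genes with 6 values (right) on each array (x axis), where lines join the arrays of a group and the thick line is the median. Array 1 lies below array 2 for all 25 subunits in both groups, and the assembly factors cross each other.

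**Figure D5:**
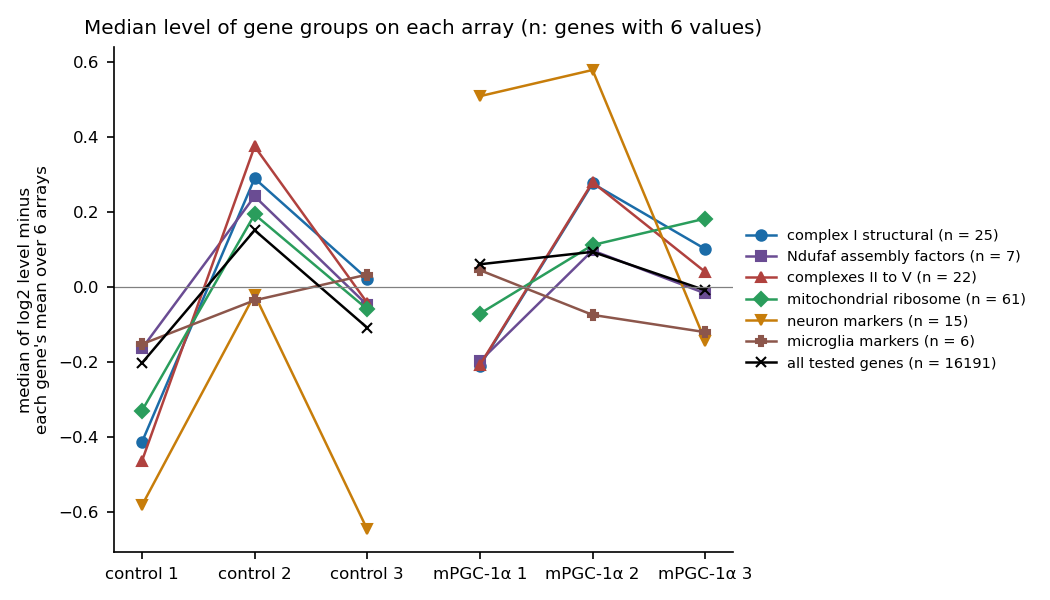
Median over genes of the log2 level minus each gene's mean over the 6 arrays (y axis) for 7 gene groups on each array (x axis), with the number of genes in the legend. Complex I and complexes II to V run together at -0.41 and -0.46 on control array 1 and near 0.28 on mPGC-1α array 2, while the neuronal markers are high on both mPGC-1α arrays 1 and 2.

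Promoters of the members were read because the structural subunits varied together across arrays and because PGC-1α acts through factors that bind such promoters. A window from 250 bases before to 50 bases after the start was present for 40 of the 46 genes, with 42 windows in all (RefSeq, GRCm38.p6). On either strand, the letters GATGGCG, a core of the YY1 motif, were found in 21.4% of the Nduf windows (9 of 42) and in 3.49% of all 32851 windows. In the 250 bases before the start they were found only for Ndufaf7 and for Ndufa7, whose overlapping windows share the same site. The remaining YY1 matches lay in or across the 50 bases after the start. Bases after the start belong to the transcript as annotated, and whether the letters there also act as part of a promoter was not examined. The letters GCATGCG of the NRF1 motif were found in 11.9% against 3.58%. CCGGAAG, read by ETS factors such as GABPA, was found in 14.3% against 8.86%, and AAGGTCA, read by ERR, in 7.14% against 4.72%. The NRF1 letters and their reverse overlap in a palindrome, which was counted once. These are matches of letters and not sites of binding.

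The ERR letters were found upstream of Ndufb2, Ndufb4 and Ndufs5, and the windows of the pair that were tested are printed, with those of Ndufa11 and Ndufaf4 for the NRF1 letters. Each runs 5′ to 3′ on the strand of the gene over the 250 bases before the start, with the matched letters in capitals. They lie at chr16:37654369-37654618 (minus strand) for Ndufb4, chr4:123718187-123718436 (minus strand) for Ndufs5, chr17:56717512-56717761 (plus strand) for Ndufa11 and chr4:24897833-24898082 (plus strand) for Ndufaf4.
Ndufb4: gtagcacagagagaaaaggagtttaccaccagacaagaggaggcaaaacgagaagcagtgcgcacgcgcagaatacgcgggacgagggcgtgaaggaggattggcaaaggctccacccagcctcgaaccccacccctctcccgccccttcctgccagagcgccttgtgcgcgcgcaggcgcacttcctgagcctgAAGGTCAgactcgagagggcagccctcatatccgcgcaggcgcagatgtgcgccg
Ndufs5: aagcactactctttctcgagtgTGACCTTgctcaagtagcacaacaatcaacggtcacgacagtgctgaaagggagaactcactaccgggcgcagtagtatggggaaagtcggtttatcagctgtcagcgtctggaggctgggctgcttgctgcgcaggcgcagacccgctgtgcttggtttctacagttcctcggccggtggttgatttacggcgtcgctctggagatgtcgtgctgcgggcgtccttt
Ndufa11: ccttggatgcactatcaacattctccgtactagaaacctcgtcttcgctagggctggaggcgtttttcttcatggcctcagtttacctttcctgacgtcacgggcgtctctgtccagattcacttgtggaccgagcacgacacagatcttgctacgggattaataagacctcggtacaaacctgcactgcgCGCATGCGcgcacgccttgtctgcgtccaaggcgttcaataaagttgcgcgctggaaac
Ndufaf4: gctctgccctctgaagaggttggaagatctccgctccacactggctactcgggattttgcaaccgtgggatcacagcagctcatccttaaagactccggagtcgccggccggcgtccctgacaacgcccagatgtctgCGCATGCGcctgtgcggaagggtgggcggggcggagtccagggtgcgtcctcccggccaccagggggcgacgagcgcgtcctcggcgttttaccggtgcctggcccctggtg

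The letters begin 55 bases before the start of Ndufb4 and 228 bases before that of Ndufs5. In Ndufa11 and Ndufaf4 the pair of overlapping NRF1 matches begins 59 and 112 bases before the start. These 4 genes had differences of 0.34, -5.41, -0.33 and -0.020, in the order in which they are printed, and that of Ndufs5 rests on the single spot described above.

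On the brightest probe of each gene, to which the counts here refer, other genes of the pathway showed as little difference. None of the 11 tested assembly genes outside the Ndufaf family had an unadjusted p below 0.05, and 8 were above 0 (median 0.056), or 5 of 11 without mPGC-1α array 3 (median -0.031). A dimmer Foxred1 probe had a difference of -1.42 (SE 0.56, unadjusted p = 0.0307 by limma), against 0.056 on the brighter one. Of all tested probes, 7.17% had an unadjusted p below 0.05. Timmdc1, a membrane arm assembly factor, had 0.34 (SE 0.18, limma adjusted p = 0.730) and Ecsit, a partner of Ndufaf1, had 0.21 (SE 0.22). Of 42 tested nuclear genes of complexes II to V, 27 were above 0 (median 0.061), but 13 with quantile normalization, 11 with normexp, 8 of 33 without control array 1 and 12 of 29 without mPGC-1α array 2, and 0 had an unadjusted p below 0.05. Of 76 genes of the mitochondrial ribosome, 63 were above 0 (median 0.14), and 0 had an unadjusted p below 0.05. Higher without overlap lay 3 of the 61 with 6 values, beside 8.48% of all genes. Without control array 1, 35 of 73 were above 0 (median -0.016). Without control array 2, Atp5a1 and Mrps2 had a limma adjusted p below 0.05, as did 611 of all 17825 genes. The lists then held 36 tested genes of complexes II to V, 74 of the mitochondrial ribosome, 11 other assembly genes and 14 regulators.

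On their brightest probes, the regulators upstream of complex I had 7 of 14 members above 0 (median 0.063) and 0 with an unadjusted p below 0.05. Dimmer Gabpa probes had differences of -1.02 (SE 0.40, unadjusted p = 0.0301 by limma) and -0.31, against 0.28 on the brightest one. When every tested probe of a gene was averaged, 4 of 14 were above 0 (median -0.26). Esrra, which encodes ERRα, read 2.66, 3.09 and 2.51 on the controls and 3.10, 3.27 and 3.06 on the mPGC-1α arrays (difference 0.39, SE 0.20, limma adjusted p = 0.722). Control array 2 lay among the mPGC-1α values. Tfb1m, a mitochondrial ribosomal RNA methyltransferase, was the one regulator of 14 without overlap, where 3.45% of all genes lay lower without overlap and 11.9% in either direction. It read -2.86, -2.93 and -3.21 against -3.78, -3.53 and -3.37 (difference -0.56, SE 0.28, limma adjusted p = 0.715). Nrf1 had a difference of -0.16 (SE 0.26) and Tfam, which binds and packs mitochondrial DNA, one of -0.15 (SE 0.25).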

How the data were processed

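RNA of 6 microglial samples had been labelled and hybridised to Agilent mouse arrays, 1 per sample, in 1 channel. The deposited scanner files carry linear intensity per spot, produced with Feature Extraction 11.5.1.1, background-subtracted and detrended within the array and not normalized between arrays. The authors' series matrix holds log2 values from GeneSpring for 46731 of 56605 probes, with nearly equal quartiles on every array, and served as an alternative. The labels name Cy3 in one field and Cy5 in another.

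Levels were computed by subtracting, in R (version 4.3.3; data.table at version 1.17.8), from log2 of the processed signal its 75th percentile over every probe of the array that is not a control, outlier-marked spots included. Marked spots were then left out of the values. They are the bright ones (3010 and 4931 on the second slide, which held array 3 of each group, against 549 to 1094 on the others), and a percentile without them moved by -0.25 and -0.50 on these arrays. The signal was well above background on 71.0% to 86.5% of spots, 0 spots were saturated, and the number of arrays limits the precision. A probe was tested if every unmarked spot of at least 1 group was well above background, with at least 2 values per group. This left 40745 probes, 3750 with a missing value.

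Groups were compared with limma 3.58.1 (lmFit, eBayes with trend, two-sided) over all tested probes with Benjamini-Hochberg adjustment and a threshold of 0.05. The brightest tested probe stood for a gene. Exact permutation tests ran over 20 assignments. Nothing says that arrays came from separate animals, so p-values measure the spread between these samples only. Same-numbered arrays deviated together from their group means (correlations 0.247, 0.224 and 0.171, others -0.337 to 0.035), so the numbers, taken from the labels, were treated as pairs in an alternative. Probe names came from accessions matched to a RefSeq list of genes of GRCm38.p6 (33767 of 56605 probes). The array grid is older, so no gene coordinates are given. The procedure was tested on simulated data.

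The members and lists were chosen with earlier results of these data known. Named with values were the core subunits, all Ndufaf genes, the 8 structural subunits and 3 assembly factors with the smallest p, members with probes of opposite sign, Ndufa4, Ndufa4l2, untested members and Ppargc1a. Timmdc1, Ecsit, Foxred1, Esrra, Gabpa, Tfb1m, Nrf1, Tfam, Ndufa1, Ndufa3, Ndufa5, Ndufc2, Atp5a1, Mrps2 and Cx3cr1 were named after their values were seen. The counts and medians include 1 member that is not reported here. Alternatives were other normalizations, filters and marked spots kept, blocks, eBayes without trend, the mean of all probes and leaving out each array.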

Additional observations from a re-analysis of the deposited data

How the results depend on the processing

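The count of Nduf genes with a limma adjusted p below 0.05 was 0 under all 18 settings. That at an unadjusted p below 0.05 went from 0 to 1 under 6 of them, with the share of all genes in brackets. It was Ndufs5 with no filter on dim probes (5.34%), with the replicate block (10.3%) and with the percentile over unmarked spots (5.41%). The last is an alternative chosen after seeing the data. It was Ndufab1 with eBayes without trend (5.41%), Ndufa11 without control array 1 (3.99%) and Ndufs8 without control array 2 (21.2%). The replicate block changed no other call of a member. Leaving out 1 array gave 0 to 1 such genes, medians of -0.088 to 0.25 for the structural subunits and -0.13 to 0.15 for the Ndufaf genes, -0.10 to 0.14 for their difference and 0 to 2 called genes of the rest of the pathway. The difference of the medians was -0.082 with normexp. None of the single genes passed the test under any setting. Signs turned with quantile normalization for Ndufa10 (-0.058), Ndufs3 (-0.011) and Ndufv2 (-0.097), with normexp for Ndufa10 (-0.048), Ndufv2 (-0.12), Ndufaf4 (0.021) and Ndufaf8 (0.052), and in the authors' values for Ndufa10 (-0.049), Ndufs3 (-0.0083), Ndufv2 (-0.10) and Ndufaf8 (0.0054). They turned with the mean of all probes for Ndufa10 (0.021), Ndufaf5 (0.0018) and Ndufv1 (-0.14), and with the percentile over unmarked spots for the dimmer Ndufa10 probe (0.023), Ndufaf4 (0.056), Ndufaf5 (0.071) and Ndufaf8 (0.044). Leaving out 1 array moved Ndufa10 between -0.0029 and 0.15 (dimmer probe -0.17 to 0.14), Ndufs3 between -0.073 and 0.26, Ndufv1 between -0.0092 and 0.18, Ndufv2 between -0.17 and 0.17 and Ndufb8 between -0.071 and 0.37. Among the assembly factors it moved Ndufaf2 between -0.15 and 0.30, Ndufaf3 between -0.24 and 0.060, Ndufaf4 between -0.17 and 0.096, Ndufaf5 between -0.23 and 0.23 (dimmer probe -0.12 to 0.18), Ndufaf6 between -0.15 and 0.24 and Ndufaf8 between -0.15 and 0.15. The cause was not tested.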
